A study of Callithrix jacchus with 4 samples.

Results

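*GAP43* and 4 other genes of growth-associated proteins (*BASP1*, *MARCKS*, *STMN2* and *CHL1*) were followed through nuclei of marmoset primary visual cortex (V1), with and without ischemic injury. The 5 genes were taken by name from the tables of UMIs (unique molecular identifiers, each a captured transcript counted a single time), which held 16383 genes common to both cohorts, and all 5 were listed for every nucleus. The injured cohort comprised 3 adult marmosets whose left V1 had received endothelin-1 (ET-1), a peptide that constricts blood vessels, 7 days before collection, with 1 library of nuclei per animal (injured replicates 1, 2 and 3). The control cohort comprised V1 of 3 adult marmosets without ET-1, pooled in 1 library, which gives no spread among control animals. No genotype or strain was stated for either cohort, and the injured tissue held both the core and the penumbra of the lesion. Counts were summed per library and per cell type as annotated by the authors. These were excitatory neurons (ExN), inhibitory neurons (InN), astrocytes (Astro), oligodendrocyte progenitor cells (OPC), oligodendrocytes (Oligo), endothelial cells (Endo) and microglia.

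All 5 encoded proteins act at or near the membrane of growing neurites. GAP43 lies on the inner face of the growth cone membrane, binds calmodulin and is phosphorylated by protein kinase C, and its re-expression marks neurons that regrow an axon. BASP1 and MARCKS are acidic proteins of the same inner face that bind phosphoinositides and calmodulin and shape the actin cortex below it. STMN2 binds tubulin and keeps microtubules dynamic in the growth cone. CHL1 is an adhesion molecule of the L1 family that guides neurites and is also known from glial progenitors and reactive astrocytes.

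The injured libraries held 7500 to 12527 nuclei and 35737777 to 48722394 UMIs, and the control library held 8610 nuclei and 22832703 UMIs. The median nucleus held 3531 to 4504.5 UMIs in the injured libraries and 2117 in the control library, and control glia were shallower still, with 1183 UMIs per median astrocyte and 962 per median OPC. In each cohort, 31 of 32 cell type markers peaked in the cell type they mark. The exceptions were *FLT1*, highest in control microglia rather than endothelium, and *GPR34*, highest in injured OPC rather than microglia. Pairs of libraries shared 15 to 27 cell barcodes, of at least 7500 in either. The cohorts also differed in nuclei isolation (after lysis with detergent in both, a sucrose cushion for injured tissue and sorting for control tissue), in the sequencing site and instrument and in the removal of doublets. Injury and these steps therefore cannot be told apart in any comparison of injured with control nuclei. Levels are given as CPM (the UMIs of a gene per 1000000 UMIs of the summed nuclei), and they were not compared between genes, since the counts were not scaled by transcript length.

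**Figure D1:**
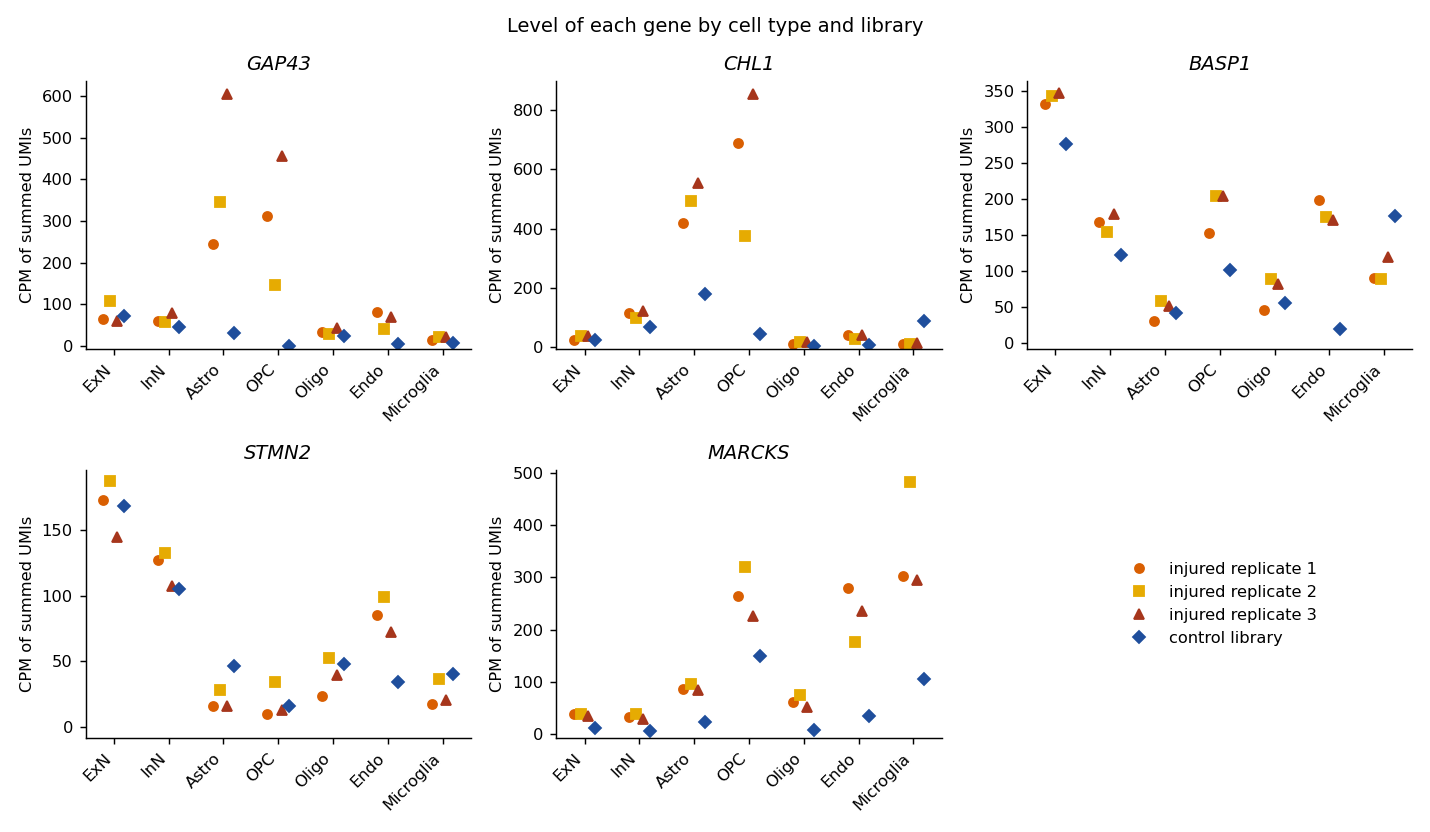
CPM of summed UMIs (vertical axis) of each gene in the 7 annotated cell types (horizontal axis), with 1 point per library. *GAP43* and *CHL1* stood highest in astrocytes and OPC of the injured libraries, *BASP1* and *STMN2* in excitatory neurons, and *MARCKS* in microglia, OPC and endothelium.

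The cell type with the highest *GAP43* level differed between cohorts. In the control library *GAP43* was highest in excitatory neurons at 72.6 CPM (exact Poisson 95% interval, 68.6 to 76.7), followed by inhibitory neurons at 45.1 CPM and astrocytes at 31.2 CPM. By the mean of the injured libraries it was highest in astrocytes, at 399 ± 186 CPM (SD, n = 3), followed by OPC at 305 ± 155 CPM and excitatory neurons at 77.3 ± 26.4 CPM. In injured replicate 1, *GAP43* was higher in OPC than in astrocytes. The injured ranges of astrocytes and OPC overlapped, those of OPC and excitatory neurons did not, and excitatory neurons, inhibitory neurons and endothelium overlapped with their neighbours in this order. These levels are a description, since the cell types come from clusters of the same nuclei, and Poisson intervals cover counting error only.

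In astrocytes, *GAP43* stood at 246, 345 and 606 CPM in injured replicates 1, 2 and 3 and at 31.2 CPM (20.6 to 45.4) in the control library. All 3 injured animals were above the control library, and the lowest of them was above the upper end of its counting interval. The fitted log2 fold change was 3.798 with a standard error of 0.62. The adjusted p was 0.0113 (edgeR quasi-likelihood test, Benjamini-Hochberg over 12445 genes), which missed the limit of 0.01 used here (1.12% of all genes were called higher in astrocytes). It passed that limit with DESeq2 (log2 3.804, adjusted p = 0.000434). At equal depth it also passed (log2 4.67, edgeR adjusted p = 0.00086), where 5 control astrocytes held a *GAP43* UMI and none held more than 1. Without any 1 of the injured animals it passed as well (log2 3.33 to 4.06, edgeR adjusted p of 0.000519 to 0.00601). Each of those fits leaves 2 injured animals to estimate the spread. Astrocytes are known to raise *GFAP* and *VIM* after injury, and 5 of 7 tested reactive astrocyte genes were called higher in the same nuclei, beside 1.12% of all genes, among them *CD44* (log2 4.60), *KLF6* (4.83), *VIM* (4.32) and *RTN4* (1.85). That list holds *CD44*, *KLF6* and *RTN4*, which the study had named from these same nuclei, so the count is no independent test.

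The astrocyte nuclei also held neuronal RNA. The summed level of 10 neuronal transcripts in astrocytes was 659 to 829 CPM in the injured libraries, which was 8.10% to 10.1% of their level in excitatory neurons of the same library. In the control library it was 1273 CPM, or 18.7%. None of the 10 was at 0 in either cohort. Of the 10, 5 had an unadjusted edgeR p below 0.05, as had 3735 of all 12445 genes tested. None of the 10 was called by edgeR or DESeq2. Their median log2 fold change was -0.40, and 4 of the 10 had a positive one, among them *NEFL* and *NEFM*, higher in all 3 injured libraries on 3 and 4 control UMIs. *GAP43* in astrocytes stood at 384%, 320% and 1009% of its level in excitatory neurons of injured replicates 1, 2 and 3, against 43.0% in the control library. In astrocytes with no UMI of these 10 transcripts, a subset chosen after the data were seen that kept 6.87% to 12.9% of injured and 47.5% of control astrocytes, *GAP43* stood at 297, 402 and 483 CPM against 6.18 CPM (2 UMIs) in the control library.

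Part of the injured astrocytes carried *GAP43*. Without regard to depth, 43.8%, 36.8% and 52.4% of astrocyte nuclei of injured replicates 1, 2 and 3 had a *GAP43* UMI, against 3.37% in the control library. After each nucleus was thinned to 1000 UMIs, and nuclei below that depth were left out (4 to 23 injured and 232 control astrocytes), the shares were 14.1%, 18.9% and 26.5% in the injured replicates. The control share was 1.38% (exact Clopper-Pearson 95% interval, 0.45% to 3.19%; 362 nuclei). Microglia, which are not known to use the gene, gave 1.57% to 1.87% in the injured libraries (median depths of 2428 to 3930 UMIs) and 2.70% (0.0684% to 14.2%) of only 37 nuclei in the control library (793 UMIs). The injured astrocyte share was thus above the microglial share in every animal. In the control library the microglial share rested on 1 nucleus and the intervals overlapped, so no order could be read there (unthinned, 3.37% of astrocytes and 0.775% of microglia had a *GAP43* UMI). At 1000 UMIs, 1.51%, 3.13% and 4.63% of astrocytes in injured replicates 1, 2 and 3 held 3 or more *GAP43* UMIs, with a highest count of 9, and no control astrocyte held more than 1.

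**Figure D2:**
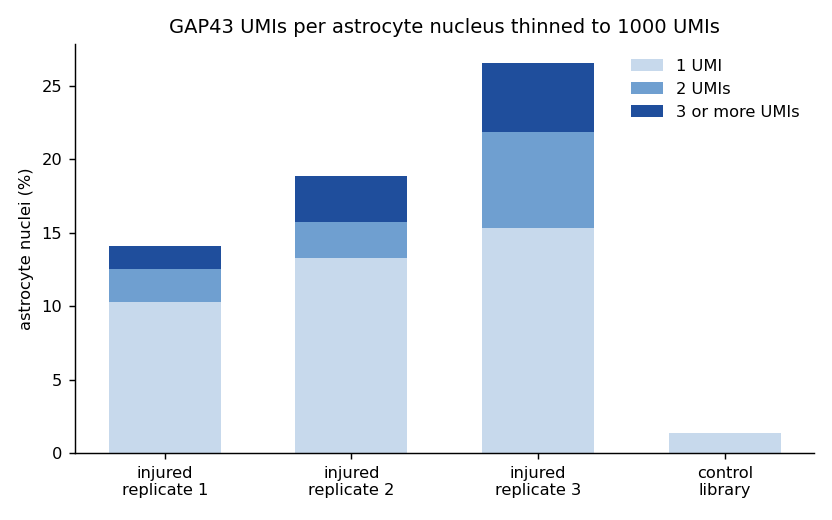
Percent of astrocyte nuclei (vertical axis) with 1, 2 or at least 3 *GAP43* UMIs after thinning to 1000 UMIs, stacked for each library (horizontal axis). The bars reach 14.1%, 18.9% and 26.5% for injured replicates and 1.38% for the control library, where no nucleus held more than 1.

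In OPC, the cells that give rise to oligodendrocytes, *GAP43* stood at 313, 146 and 456 CPM in injured replicates 1, 2 and 3, and no UMI was found in the control library, whose 171 OPC nuclei held 186916 UMIs. Against 3 UMIs over that control sum, the level in injured replicate 2, the lowest of the 3, was at least 9.11-fold higher. The adjusted p was 0.0620 (edgeR), so the difference did not pass the test. It passed without injured replicate 2 (adjusted p = 9.29e-29) or without injured replicate 3 (adjusted p = 2.99e-05), each of which leaves 2 injured animals to estimate the spread. The annotated OPC nuclei of the injured animals also carried astrocyte markers. A UMI of *GFAP* or *AQP4* was present in 53.2%, 27.5% and 51.1% of OPC nuclei in injured replicates 1, 2 and 3 and in 0 of 171 control OPC nuclei, which allows a share of up to 1.75% (3 of 171). That limit covers counting error in nuclei with a UMI at the control depth of 962 UMIs per median nucleus, against 2912 to 5628 in injured OPC, and is no limit on nuclei that express the genes. The summed level of the 6 astrocyte markers in OPC was 841 to 1354 CPM in the injured libraries and 1091 CPM in the control library, where *GFAP* and *AQP4* were at 0, and in injured astrocytes it was 7652 to 9194 CPM. *GAP43* stood at 460, 220 and 647 CPM in the OPC nuclei with *GFAP* or *AQP4* and at 71.4, 103 and 123 CPM in those without, so the level was higher in the former in all 3 animals. The nuclei with *GFAP* or *AQP4* were also deeper, with 4225 to 6663 against 2717 to 4565 UMIs per median nucleus. The part of these nuclei in the OPC difference was not tested.

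*GAP43* did not pass the test in neurons, nor in any other cell type in the main analysis. In excitatory neurons it stood at 64.1, 108 and 60.1 CPM in injured replicates 1, 2 and 3 and at 72.6 CPM in the control library, which lay within the injured range (log2 0.21, standard error 0.34, edgeR adjusted p = 0.665). In inhibitory neurons it stood at 60.0, 58.1 and 78.2 CPM against 45.1 CPM (log2 0.64, standard error 0.22, edgeR adjusted p = 0.0727). In oligodendrocytes the values were 33.8, 28.3 and 42.2 CPM against 24.3 CPM (edgeR adjusted p = 0.260). In endothelium they were 81.4, 41.3 and 70.1 CPM against 4.90 CPM (edgeR adjusted p = 0.0406), which was a single UMI, so that the ratio of 12.8 had a counting interval of 2.29 to 505. In microglia they ranged from 13.4 to 21.4 CPM against 8.03 CPM, again a single UMI (edgeR adjusted p = 0.575). The log2 fold change of *GAP43* in astrocytes exceeded that in excitatory neurons by 3.48 with a standard error of 0.79. The adjusted p of this difference was 0.0200 (edgeR interaction with library as a block), and it did not reach 0.01, the limit that 0.663% of 14772 genes passed. At equal depth it did (difference 4.27, edgeR adjusted p = 0.00278), where 5 control astrocytes held a *GAP43* UMI and none held more than 1. Against inhibitory neurons the difference was 3.07 (standard error 0.84, adjusted p = 0.0603, with 0.514% of genes called) and against oligodendrocytes 3.12 (standard error 1.05, adjusted p = 0.175, with 0.19% called). Against microglia it was 2.23 (standard error 3.995, adjusted p = 0.887), against endothelium -0.10 (standard error 3.00, adjusted p = 1) and against OPC -9.87 (standard error 7.44, adjusted p = 0.744). The control sums of these last 3 cell types held 1, 1 and 0 *GAP43* UMIs, so that their fitted differences are not bounds.

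The injured astrocytes with and without *GAP43* were compared within each animal. At 1000 UMIs, 431 nuclei with a *GAP43* UMI (56, 169 and 206 per animal) were set against 1640 without one at that depth (342, 727 and 571). Before thinning, 176, 338 and 412 nuclei held a *GAP43* UMI, so part of the *GAP43*- class carried the gene at full depth. Of 5284 genes tested with animal as a block, 142 (2.69%) were called, 83 of them higher and 59 lower in *GAP43*+ astrocytes. *CHL1* was the only other member of the 5 called, at 699, 559 and 891 CPM in *GAP43*+ and 405, 450 and 427 CPM in *GAP43*- astrocytes of injured replicates 1, 2 and 3 (log2 0.74, standard error 0.14, edgeR adjusted p = 0.000339). It was higher in all 3 animals. *BASP1* (log2 0.20, adjusted p = 0.841) and *MARCKS* (log2 -0.19, adjusted p = 0.835) differed by less than their standard errors, and *STMN2* was too low to be tested. *RTN4*, which encodes the neurite outgrowth inhibitor NogoA, was higher in *GAP43*+ nuclei of all 3 animals (log2 0.68, adjusted p = 0.000436), as were *CD44*, the hyaluronan receptor (log2 0.94, adjusted p = 1.28e-05), and *KLF6*, a zinc finger transcription factor (log2 0.95, adjusted p = 0.00244). *KLF6* differed little in injured replicate 1, where it stood at 143 against 141 CPM. *RTN4* also differed little in that animal, at 627 against 601 CPM.

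Among the genes that were called, which needs a UMI in at least 10% of nuclei, and that moved the same way in all 3 animals, the 5 largest rises in *GAP43*+ astrocytes were in *CHI3L1*, a secreted glycoprotein of reactive astrocytes (log2 2.28), *IL7*, a cytokine of lymphocyte survival (1.94), *TNC*, the matrix protein tenascin C (1.69), *SERPINA3*, a protease inhibitor raised in reactive astrocytes (1.66), and *ACP6* (1.52). The 3 largest falls among them were in *ANOS1* (log2 -1.69), *AGMO* (-1.67) and *LMO3* (-1.59). *SLC1A2*, the main glutamate transporter of astrocytes, was at 2277, 2752 and 2546 CPM in *GAP43*+ and at 4183, 6351 and 5744 CPM in *GAP43*- nuclei (log2 -1.11, standard error 0.09, adjusted p = 1.63e-11). Of the 7 reactive astrocyte genes tested, 5 were called higher (*VIM*, *SERPINA3*, *CD44*, *KLF6* and *RTN4*), beside 1.57% of all genes, while *GFAP* was not (log2 0.16, adjusted p = 0.665). *OSMR* was higher in all 3 animals (log2 2.25, edgeR adjusted p = 4.74e-05) but was found in 9.28% of *GAP43*+ nuclei, below the 10% that a call needs. The study had named *CD44*, *KLF6* and *RTN4* beside *GAP43* in these same nuclei, so the count is no independent test. Of 5 neuronal transcripts tested none was called by edgeR (2 of 5 had an unadjusted p below 0.05, and 1 of 5 had a positive fold change). *GRIN2A* (log2 -1.95, adjusted p = 0.0320) and *RBFOX3* (log2 -0.58, adjusted p = 0.144) were lower in *GAP43*+ nuclei of all 3 animals, and *SYT1* was at log2 -0.20. *GAP43*+ nuclei were the deeper class before thinning, with medians of 5684, 3698 and 5845.5 UMIs against 5249.5, 2847 and 4325 UMIs. The numbers of called genes rested on the animals, at 69 without injured replicate 2 and 71 without injured replicate 3, and with animal left out of the model 0 were called (848 at an unadjusted p below 0.05 with it). *CHL1* was not called without injured replicate 3 (log2 0.48, edgeR adjusted p = 0.174) or with DESeq2 (log2 0.72, adjusted p = 0.0181), and it turned to log2 -0.13 (edgeR adjusted p = 0.965) in astrocytes without neuronal transcripts, where 40 nuclei were *GAP43*+.

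**Figure D3:**
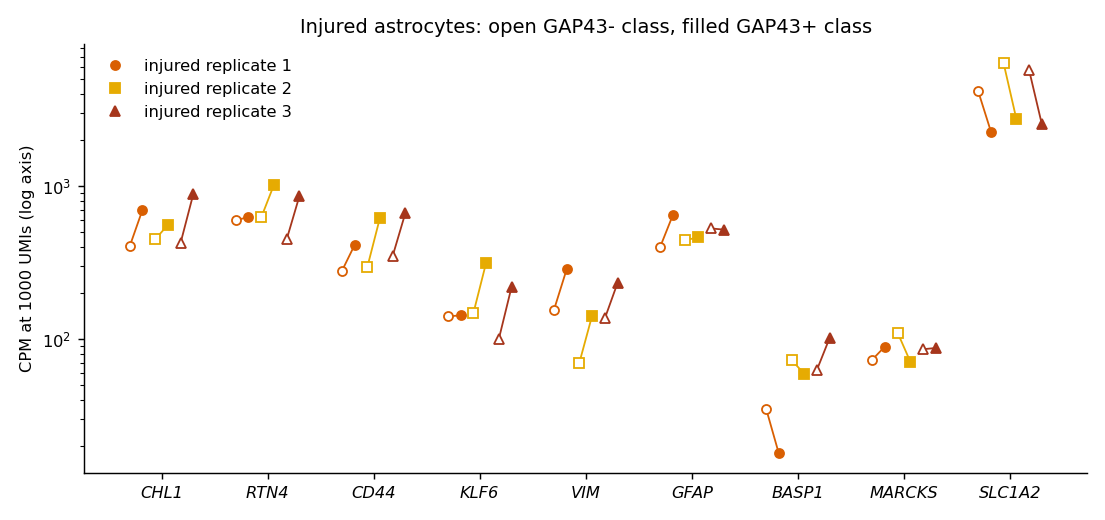
CPM at 1000 UMIs (vertical log axis) of 9 genes (horizontal axis) in *GAP43*- (open) and *GAP43*+ (filled) astrocytes, joined within each of the 3 injured animals. *CHL1*, *RTN4*, *CD44*, *KLF6* and *VIM* lay higher and *SLC1A2* lower in *GAP43*+ nuclei of all 3 animals, and *BASP1* and *MARCKS* moved both ways.

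Read from the other side, with astrocytes split by *RTN4* at 1000 UMIs, *GAP43* was the only member called. It stood at 264, 405 and 701 CPM in *RTN4*+ and at 163, 226 and 359 CPM in *RTN4*- astrocytes of injured replicates 1, 2 and 3 (log2 0.87, standard error 0.13, edgeR adjusted p = 1.27e-05). The same nuclei and thinned counts had served the split by *GAP43*, and the study had named *GAP43* beside *RTN4*. The *GAP43* call is therefore no independent test. Of 6046 genes tested, 46 (0.761%) were called. *CHL1* (log2 0.05, adjusted p = 0.916), *BASP1* (log2 -0.06, adjusted p = 0.958) and *MARCKS* (log2 -0.04, adjusted p = 0.966) differed by less than their standard errors. The share of nuclei with a *GAP43* UMI was 28.4% in the *RTN4*+ and 15.8% in the *RTN4*- class at equal depth. Without injured replicate 2 the log2 difference of *GAP43* was 0.89 but its adjusted p was 0.568, and 0 genes were called by edgeR.

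*CHL1*, like *GAP43*, was highest in OPC and astrocytes among the cell types of the injured libraries. In astrocytes it stood at 418, 494 and 553 CPM in injured replicates 1, 2 and 3 and at 179 CPM (152 to 210) in the control library, so all 3 injured animals were higher. The log2 fold change was 1.56 with a standard error of 0.25, and the adjusted p of 0.01003 (edgeR) missed the limit. It passed with DESeq2 (adjusted p = 3.69e-05) and at equal depth (log2 1.58, edgeR adjusted p = 0.00327). In OPC it stood at 689, 376 and 856 CPM against 42.8 CPM, which was 8 UMIs (log2 4.03, standard error 0.65, edgeR adjusted p = 0.0433). It passed there with DESeq2 (adjusted p = 6.97e-07), and as for *GAP43*, the level was higher in OPC nuclei with *GFAP* or *AQP4* (965, 682 and 1212 CPM) than in those without (237, 196 and 232 CPM). The OPC comparison called few genes in all, 0.061% of 11476 as higher with edgeR.

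Among neurons, *CHL1* was higher in the inhibitory class. It stood at 114, 98.7 and 120 CPM in inhibitory neurons of the injured replicates and at 65.8 CPM in the control library (log2 0.85, standard error 0.18, edgeR adjusted p = 0.0121), and at 21.9, 38.1 and 38.4 CPM against 21.5 CPM in excitatory neurons (adjusted p = 0.161). The mix of subclasses differed as well. *SST*, a marker of 1 inhibitory subclass, was found in 9.77%, 11.02% and 13.2% of injured and 3.26% of control inhibitory nuclei without regard to depth (log2 2.42, edgeR adjusted p = 0.00136), and its part in the inhibitory differences of *CHL1* and *GAP43* was not tested. In microglia *CHL1* lay the other way, with 8.46, 10.3 and 14.5 CPM in the injured replicates and 88.4 CPM (11 UMIs) in the control library, a difference that did not pass the test (log2 -2.75, edgeR adjusted p = 0.0832). The control microglia comprised 129 nuclei, of which 37 reached 1000 UMIs. The log2 fold change of *CHL1* in astrocytes exceeded that in microglia by 4.27 (standard error 1.01, edgeR adjusted p = 0.0193, with 1.41% of genes called) and lay below that in OPC (difference -2.53, standard error 0.76, adjusted p = 0.198, with 0.0609% called). It differed from that in excitatory neurons by 0.82 (standard error 0.45, adjusted p = 0.386) and from that in inhibitory neurons by 0.66 (standard error 0.47, adjusted p = 0.547).

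*BASP1* was highest in excitatory neurons in both cohorts. It stood there at 332, 343 and 347 CPM in injured replicates 1, 2 and 3 and at 276 CPM (268 to 284) in the control library, and all 3 injured animals were higher without passing the test (log2 0.42, standard error 0.12, edgeR adjusted p = 0.0424). In inhibitory neurons it stood at 168, 155 and 179 CPM against 123 CPM (log2 0.55, adjusted p = 0.0383). In astrocytes, where *GAP43* was high after injury, *BASP1* was at 30.8, 59.1 and 51.4 CPM in the injured replicates, on both sides of the control level of 42.8 CPM (log2 0.27, adjusted p = 0.689). The injury effect on *BASP1* in astrocytes differed from that in excitatory neurons by -0.17 (standard error 0.42, adjusted p = 0.898). In OPC *BASP1* stood at 153, 204 and 204 CPM against 102 CPM (log2 1.01, edgeR adjusted p = 0.164), with all 3 injured animals higher. In microglia it stood at 90.5, 88.8 and 120 CPM against 177 CPM (22 UMIs, log2 -0.58, edgeR adjusted p = 0.392), with all 3 lower.

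*BASP1* rose in endothelium. The level was 198, 175 and 171 CPM in the injured replicates and 19.6 CPM (4 UMIs, 5.34 to 50.2) in the control library, and the log2 fold change was 3.34 (standard error 0.40, edgeR adjusted p = 0.00136). Of all genes tested in endothelium, 4.19% were called higher and 1.99% lower. The summed neuronal transcripts moved with it. They stood at 2050 to 2727 CPM in injured endothelium (25.2% to 35.7% of the level in excitatory neurons) and at 544 CPM (7.98%) in control endothelium, with none of the 10 at 0, and 5 of the 10 were called higher there, *SYT1* and *SNAP25* among them. *BASP1* in endothelium was 49.4% to 59.7% of its level in excitatory neurons in the injured libraries and 7.10% in the control library. The control endothelium comprised 181 nuclei and held 848 CPM of the 3 endothelial markers, against 3404 to 4096 CPM in the injured libraries. The 6 astrocyte markers summed to 1171 CPM in control endothelium, above its own endothelial markers and with *GFAP* at 0, and to 356 to 529 CPM in injured endothelium, where *SLC1A3*, a glutamate transporter of astrocytes, was called lower. The part of neuronal and astrocyte RNA and of the weaker control endothelial markers in the endothelial differences was not tested.

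*MARCKS* was higher in the injured libraries in all 7 cell types, and the difference passed the test in 5 of them. In excitatory neurons it rose from 10.4 CPM (8.94 to 12.1) in the control library to 37.7, 38.7 and 35.0 CPM in injured replicates 1, 2 and 3 (log2 1.95, standard error 0.17, edgeR adjusted p = 0.00138). In inhibitory neurons it rose from 4.54 CPM to 31.2, 38.1 and 28.7 CPM (log2 2.95, adjusted p = 0.000813). In astrocytes it rose from 23.1 CPM to 85.5, 96.4 and 83.8 CPM (log2 2.05, adjusted p = 0.00643). The injured replicates lay close together in these 3 cell types, and none came near the control value.

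In oligodendrocytes *MARCKS* rose from 7.83 CPM to 60.6, 74.0 and 50.5 CPM (log2 3.07, adjusted p = 0.00745), and in endothelium from 34.3 CPM to 280, 176 and 236 CPM (log2 2.88, adjusted p = 0.00448). These are cell types where 2.6% (ExN), 2.2% (InN), 1.12% (Astro), 0.619% (Oligo) and 4.19% (Endo) of all genes tested were called higher. At equal depth the share of nuclei with a *MARCKS* UMI was below 10%, the minimum for a call, in neurons, astrocytes and oligodendrocytes of both cohorts, so that no call was possible there, although the adjusted p stayed below 0.01 in those 4 (0.000252 to 0.00741). In endothelium at equal depth the log2 fold change was 1.94 and the adjusted p 0.0367. In astrocytes without neuronal transcripts they were 1.42 and 0.201 (edgeR). There *MARCKS* stood at 93.6, 94.8 and 27.1 CPM in injured replicates 1, 2 and 3, with 6 UMIs in replicate 3, against 27.8 CPM (9 UMIs) in the control library. Without injured replicate 1 the adjusted p was 0.0132 in excitatory neurons, 0.0142 in astrocytes and 0.0162 in oligodendrocytes, with log2 fold changes of 1.95 to 3.097.

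In the injured libraries *MARCKS* was highest in microglia, the immune cells of the brain, and in the control library in OPC. Microglia stood at 304, 483 and 295 CPM in the injured replicates and 104 CPM (13 UMIs, 55.6 to 179) in the control library (log2 2.04, standard error 0.53, edgeR adjusted p = 0.107). No gene was called in microglia with edgeR (0% of 13470, with 2857 at an unadjusted p below 0.05 and 304 called by DESeq2, *MARCKS* among them with an adjusted p of 0.00937). In OPC *MARCKS* stood at 264, 321 and 226 CPM against 150 CPM (log2 0.98, adjusted p = 0.148). In the injured libraries the ranges of microglia, OPC and endothelium overlapped in turn, and those of endothelium, astrocytes and oligodendrocytes did not.

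Microglia made up 21.5% to 37.6% of injured nuclei and 1.498% of control nuclei, and the microglia gene *CD74* in other cell types moved with the *MARCKS* differences. The summed level of 4 microglia markers was 129 to 220 CPM in injured and 61.5 CPM in control excitatory neurons, 180 to 266 against 90.2 CPM in astrocytes and 232 to 308 against 75.2 CPM in oligodendrocytes. It was 130 to 209 against 62.9 CPM in inhibitory neurons and 402 to 742 against 206 CPM in endothelium. Of these markers none was at 0 in those cell types, and *CD74*, the invariant chain that accompanies MHC class II, was called higher in 5 cell types (log2 5.23 in excitatory neurons). The other 3 markers (*P2RY12*, *GPR34* and *DOCK8*) did not carry this difference. Without *CD74* the sum was 46.6 to 58.2 CPM in injured and 58.2 CPM in control excitatory neurons, 77.6 to 96.7 against 89.0 CPM in astrocytes and 66.0 to 80.4 against 72.8 CPM in oligodendrocytes. It was 39.1 to 57.2 against 61.6 CPM in inhibitory neurons and 84.3 to 99.1 against 201 CPM in endothelium. In excitatory neurons *P2RY12* (log2 -0.42, edgeR adjusted p = 0.116) and *GPR34* (log2 -0.67, adjusted p = 0.155) were lower in all 3 injured libraries without passing the test, *DOCK8* had log2 0.22 (adjusted p = 0.383, higher in 1 of 3), and the median over the 4 markers was -0.10. As a share of the level in microglia of the same library, *MARCKS* in excitatory neurons was 8.01% to 12.4% in the injured and 9.97% in the control library, where the marker sum was 5.13% to 8.95% and 3.45%. In astrocytes the *MARCKS* share was 20.0% to 28.4% and 22.1%, and the marker share 7.20% to 10.8% and 5.05%. The marker sum in microglia was 2452 to 2710 CPM in the injured and 1784 CPM in the control library. Without *CD74* it was 1293 to 1445 and 1776 CPM, so *CD74* was a small part of the control sum only. By single marker, the share in excitatory neurons was 6.89% to 16.0% and 41.5% for *CD74* and 2.57% to 3.00% and 2.38% for *DOCK8*. It was 6.98% to 10.5% and 7.86% for *P2RY12* and 11.2% to 26.7% and 3.46% for *GPR34*. The part of microglial RNA in the *MARCKS* differences was not tested.

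**Figure D4:**
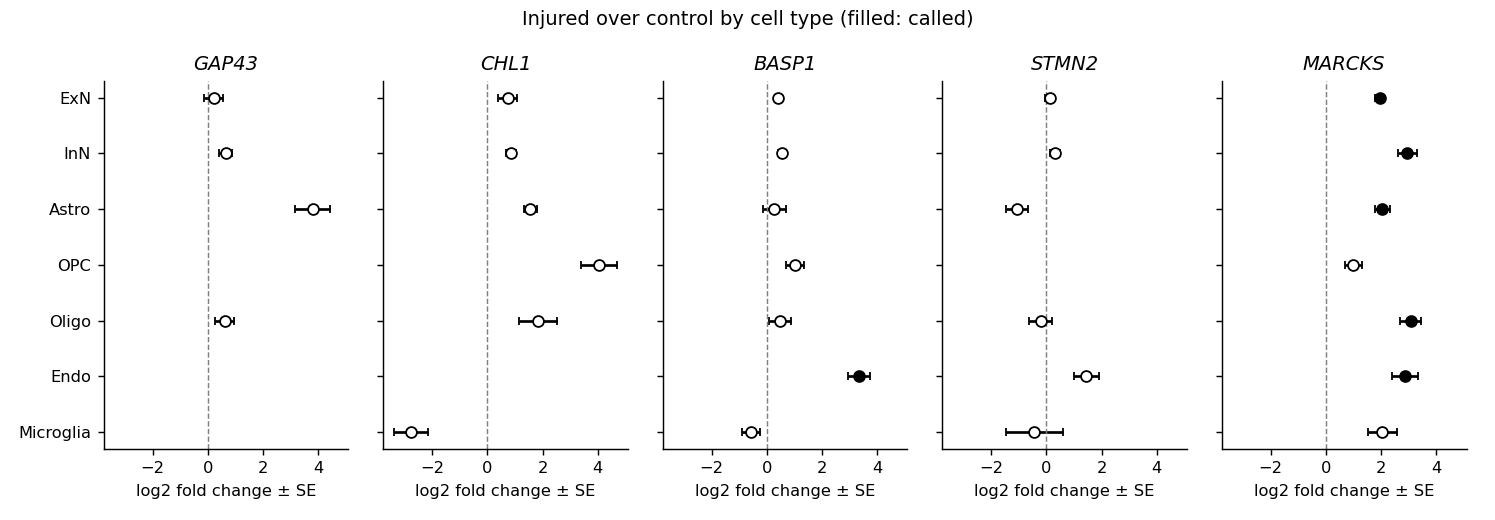
Log2 fold change of injured over control (horizontal axis) with its standard error for each gene and cell type (vertical axis), from edgeR on summed counts. Filled points passed the call, 5 for *MARCKS* and 1 for *BASP1* in endothelium, and 5 pairs with 3 or fewer control UMIs are not drawn.

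*STMN2* was highest in excitatory neurons and then inhibitory neurons in both cohorts. In excitatory neurons it stood at 173, 187 and 145 CPM in injured replicates 1, 2 and 3 and at 168 CPM (162 to 174) in the control library, which lay within the injured range (log2 0.12, standard error 0.16, edgeR adjusted p = 0.614). In inhibitory neurons it stood at 127, 132 and 107 CPM against 105 CPM (adjusted p = 0.213). In astrocytes the injured values of 16.4, 28.7 and 16.4 CPM were all below the control value of 46.2 CPM, without passing the test (log2 -1.05, standard error 0.40, adjusted p = 0.124). As a share of excitatory neurons, *STMN2* in astrocytes was 9.47% to 15.4% in the injured and 27.6% in the control library, where the summed neuronal transcripts stood at 8.10% to 10.1% and 18.7%. The injury effect on *STMN2* in astrocytes lay below that in excitatory neurons by 1.22 on the log2 scale (difference -1.22, standard error 0.47, adjusted p = 0.183) and below that in endothelium (difference -2.55, standard error 0.74, adjusted p = 0.0370, with 3.28% of genes called).

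In all, 6 of the 35 pairs of gene and cell type passed the test, each of them higher after injury, where 0% (microglia) to 4.19% (endothelium) of all genes were called higher in a cell type. In 25 pairs every injured library was above the control library. In 4 pairs every injured library was below it, and in 6 the injured libraries lay on both sides. The shares of all genes in these positions are not given here, so these counts are a description only. No difference of a member between astrocytes and another cell type was called with edgeR (0 of 30, with 9 at an unadjusted p below 0.05). Of all genes, 0.0609% (against OPC) to 3.28% (against endothelium) were called there, and the share at an unadjusted p below 0.05 is not given here.

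Inhibitory neurons were also read by subclass, from unthinned nuclei with a UMI of only 1 of *SST*, *PVALB*, *VIP* and *LAMP5*. *GAP43* was higher in *SST* than in *PVALB* nuclei of every library, at 93.1, 174 and 181 CPM in injured replicates 1, 2 and 3 and 134 CPM in the control library, against 47.3, 33.7 and 51.4 CPM and 19.6 CPM. *CHL1* followed the same order, with *SST* nuclei 3.19, 3.73 and 3.29 times higher than *PVALB* nuclei in the injured replicates. In the control library they were 3.39 times higher, on 8 *SST* UMIs and with overlapping intervals (41.9 to 191 and 17.2 to 44.7 CPM). *BASP1* was 2.01 to 3.54 times and *STMN2* 1.13 to 2.39 times higher in *SST* than in *PVALB* nuclei over the 4 libraries. *MARCKS* was 1.24 to 2.66 times higher in the injured replicates, and it stood at 24.3 CPM (2 UMIs) against 0 CPM in the control library. The classes held 30 to 105 *SST* and 48 to 198 *PVALB* nuclei per library, and the control *VIP* class of 17 nuclei had no *GAP43* UMI. At 1000 UMIs *CHL1* stood at 0 CPM in *SST* and 22.4 CPM in *PVALB* nuclei of the control library. *MARCKS* stood at 55.6 and 63.8 CPM in injured replicate 1. In every other gene and library the *SST* value stayed higher at that depth. The control *SST* class was shallower, with 2256.5 against 4619 UMIs per median nucleus. Without thinning, *MARCKS* was higher in *VIP* than in *SST* nuclei of each injured replicate. These are values with counting intervals, and the order of the classes was not tested.

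**Figure D5:**
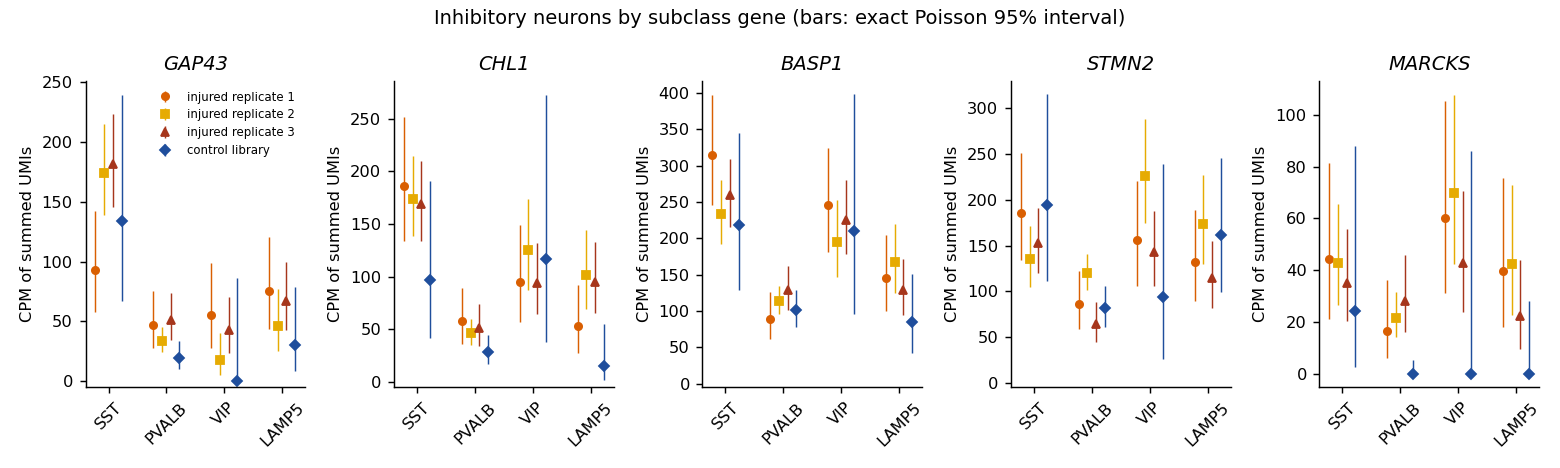
CPM of summed UMIs (vertical axis) of each gene in inhibitory nuclei with a UMI of only *SST*, *PVALB*, *VIP* or *LAMP5* (horizontal axis), 1 point per library with its exact Poisson 95% interval. Without thinning, all 5 genes lay higher in *SST* than in *PVALB* nuclei in all 4 libraries.

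Excitatory neurons of the upper layers, marked by *CUX2*, were set against those of the deep layers, marked by *FOXP2*, at 1000 UMIs and within each of the 4 libraries. None of the 5 genes was called with edgeR, and none had an unadjusted p below 0.05, where 3.8% of 7239 genes were called. *GAP43* stood at 77.4, 126, 61.0 and 63.8 CPM in *CUX2* nuclei of injured replicates 1, 2 and 3 and the control library, against 33.0, 84.5, 57.6 and 75.1 CPM in *FOXP2* nuclei (log2 0.28, standard error 0.20, adjusted p = 0.549). It was higher in the injured replicates and lower in the control library. *BASP1* differed by log2 0.01 (standard error 0.10), *STMN2* by -0.17 (standard error 0.13), *MARCKS* by -0.03 (standard error 0.31) and *CHL1* by -0.14 (standard error 0.33).

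Other genes of the same pathways were read from lists, where the shares of all genes called higher were 2.6% in excitatory neurons, 2.2% in inhibitory neurons, 1.12% in astrocytes and 4.19% in endothelium (1.99% lower). An unadjusted edgeR p below 0.05 was found for 6085 of all 15122 genes in excitatory neurons and 3735 of 12445 in astrocytes. DESeq2 called 1172 and 338 genes there. The list counts at that p are therefore a description only. Of the stathmins, 3 of 4 were tested, and *STMN4* was called higher in excitatory neurons (57.3, 71.4 and 62.2 CPM against 27.7 CPM, log2 1.32, edgeR adjusted p = 0.00541) and in inhibitory neurons (log2 1.40, adjusted p = 0.005). Of 13 partners of protein kinase C and calmodulin, 10 were tested in inhibitory neurons and 2 were called higher, *NRGN* (log2 1.35), a calmodulin-binding protein related to GAP43 in its binding motif, and *PCP4* (log2 1.64). In endothelium 3 of 10 were called higher (*NRGN*, *CALM2* and *PPP3CA*) and 2 lower (*PRKCA* and *PPP3CB*). In excitatory neurons 0 of 10 were called by edgeR (5 at an unadjusted p below 0.05, 3 called by DESeq2) and in astrocytes 0 of 9 (5 and 1). Of 18 L1 family genes and partners, 17 were tested in astrocytes and 2 were called higher, *ITGB1*, the integrin beta chain that CHL1 binds (218, 157 and 167 CPM against 34.7 CPM, log2 2.48, adjusted p = 0.00442), and *RDX*, which links membrane proteins to actin (log2 1.75, adjusted p = 0.00606). In excitatory neurons 0 of 18 were called by edgeR (8 at an unadjusted p below 0.05, 0 by DESeq2). *NRCAM*, *ITGB1* and *RDX* were called higher in endothelium (3 of 17). Of 22 growth cone genes of cytoskeleton and membrane, 15 were tested in excitatory neurons and 2 were called higher, *PFN2* (log2 1.33) and *CORO1A* (log2 2.32), which is best known from leukocytes. In astrocytes 0 of 15 were called by edgeR (5 at an unadjusted p below 0.05, 0 by DESeq2). In endothelium 2 of 15 were called higher (*TUBA1A* and *MAP1B*). Of the 10 neuronal transcripts, 5 were also called higher there. The part of neuronal RNA in the endothelial calls of these lists was not tested. Of 16 transcription factors of axon regeneration, *KLF7* was called higher in excitatory neurons (1 of 12 tested, log2 0.96, adjusted p = 0.00808), *KLF6* in astrocytes (1 of 10) and both in endothelium (2 of 11).

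The median log2 fold change over the tested genes of a list was 1.56 for the 5 members in astrocytes and 0.42 in excitatory neurons, beside 0.05 and 0.00 for all genes tested there. The astrocyte median is the uncalled value of *CHL1*, and the members spanned -1.05 (*STMN2*) to 3.80 (*GAP43*). The study had named *GAP43* from these same nuclei, so the medians are a description only. For the L1 family and partners these medians were 0.20 and 0.26, and for the growth cone genes -0.00 and 0.01. In endothelium the members' median was 2.98, the fitted value of *CHL1* on a single control UMI, beside 2.69 for the 10 neuronal transcripts and 0.26 for all genes.

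The genes whose levels were most like those of each member were taken by Pearson's r of log2(CPM + 1) over the 28 sums of library and cell type, among 10300 genes with a mean of at least 10 CPM. The sums share libraries and cell types, so the correlations are a description. For *GAP43* they were *SOCS2*, an inhibitor of cytokine signalling (r = 0.86), *TMEM65* (0.82) and *HBEGF*, a ligand of the EGF receptor (0.82). Among the other members *CHL1* was nearest to *GAP43* (r = 0.67), followed by *BASP1* (0.18), *MARCKS* (0.05) and *STMN2* (-0.02). For *BASP1* the nearest genes were *ATP2B1*, *PIANP* and *ZDHHC22* (0.87 to 0.85), and for *STMN2* they were *GALNT9*, *SLC12A5*, the neuronal chloride transporter, and *ENSCJAG00000031683* (0.95 for each). For *MARCKS* they were *CASP4*, an inflammatory caspase, *PPP1R18* and *RPS27L* (0.91 to 0.89), and for *CHL1* they were *LUZP2*, *DCLK2* and *PRKD1* (0.90 to 0.88).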

How the data were processed

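Nuclei of marmoset V1 were profiled by droplet single-nuclei RNA sequencing in 3 injured libraries and 1 pooled control library. The authors counted UMIs with Cell Ranger 3.1.0 (per the labels) against calJac3, using Ensembl gene models adapted to nuclei, ran Scrublet against doublets in injured nuclei and a gene-number filter in control nuclei, and named clusters of each cohort by markers. Deposited values are raw UMI counts without normalization, with introns included as the annotation allowed, and the cell type of each nucleus. No nucleus was removed here, and no column of other samples was present (0).

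Sums of counts over the nuclei of each library and cell type were tested for the genes of both tables with edgeR 4.0.16 in R 4.3.3 (TMM, filterByExpr, quasi-likelihood) with Benjamini-Hochberg adjustment. The spread came from the injured libraries and was taken to hold for the control library. Calls required 3 limits together, namely an adjusted p under 0.01, a natural-log fold change beyond 0.25 in size and detection in 10% or more of the nuclei of either side. Differences of injury effect between cell types were interactions with library as a block (adjusted p below 0.01). Classes of nuclei by *GAP43*, by *RTN4* and by *CUX2* and *FOXP2* were read from counts thinned at random to 1000 UMIs. They were tested with library as a block. Inhibitory subclasses and OPC with or without *GFAP* or *AQP4* were read from unthinned counts and not tested against each other. Astrocytes without neuronal transcripts were also chosen from unthinned counts. The injured against control fit in astrocytes, the interaction of astrocytes with excitatory neurons and the *GAP43* class fit were tested on simulated counts. The other steps were not. Alternatives were DESeq2 1.42.0, library size alone, RLE factors, no filter on low counts, other depths, nuclei with at most 2500 genes, unthinned counts, no block, an adjusted p limit of 0.05 and leaving out each injured animal. Shares carry exact Clopper-Pearson 95% intervals. Python 3.11.15, numpy 2.4.6, pandas 2.3.3 and scipy 1.17.1 were used otherwise.

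The 5 genes and all lists were chosen with earlier results of these data known. Named genes are the 5 members, list genes called in astrocytes or excitatory neurons and those given with a count, the 3 genes most like each member, the 5 largest rises and falls by *GAP43* class (of the falls, 3 are reported here), and *RTN4*, *CD44* and *KLF6*. Of the listed genes, *STMN1*, *MARCKSL1*, *TUBB3* and others absent from the control table could not be compared. Levels rest on 3' UMIs of nuclear RNA, so a nucleus may use a weakly expressed gene and yet show no UMI of it.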

Additional observations from a re-analysis of the deposited data

Results flagged for a closer look

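Differences in injury effect between astrocytes and another cell type were singled out where the adjusted p was below 0.05 (edgeR interaction with library as a block). The log2 fold change of *GAP43* in astrocytes exceeded that in excitatory neurons by 3.48 (adjusted p = 0.0200), with all 3 injured animals above the control library in astrocytes and 1 of 3 in excitatory neurons. The fold change of *CHL1* in astrocytes exceeded that in microglia by 4.27 (adjusted p = 0.0193), with 3 of 3 animals higher in astrocytes and 3 of 3 lower in microglia, where the control library held 11 UMIs. For *BASP1* the difference between astrocytes and endothelium was -3.12 (adjusted p = 0.0147), and for *STMN2* it was -2.55 (adjusted p = 0.0370). Control endothelium held 4 UMIs of *BASP1* and 7 of *STMN2*. Neuronal transcripts moved with the endothelial values, at 2050 to 2727 CPM after injury and 544 CPM in control endothelium, and their part was not tested.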

How the results depend on the processing

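Of the 35 pairs of gene and cell type, 6 were called in the main analysis, 10 with DESeq2, 13 at an adjusted p limit of 0.05 and 4 to 15 without 1 injured replicate. Genes called over the 7 cell types numbered 2126, against 3238 with DESeq2, 855 at 1000 UMIs, 6945 at the limit of 0.05 and 980 to 6041 without 1 replicate. *GAP43* in astrocytes (log2 3.798, adjusted p = 0.0113, not past the limit of 0.01 in the main analysis, edgeR) passed with DESeq2 (3.804), library size alone (3.68), no filter (3.84), 1000 UMIs (4.67), at most 2500 genes (3.93), the limit of 0.05 (3.798), without 1 replicate (3.33 to 4.06) and, in an alternative chosen after seeing the data, in astrocytes without neuronal transcripts (5.96, a fitted value on 2 control UMIs and no bound). It did not pass with RLE factors (edgeR adjusted p = 0.0107). The fits without 1 replicate leave 2 injured animals to estimate the spread. With library size alone, the median over all tested genes shifted on the log2 scale, from 0.0039 to -0.11 in excitatory neurons, from 0.048 to -0.062 in astrocytes, from 0.17 to 0.036 in OPC, from 0.26 to 0.14 in endothelial cells and from 0.42 to 0.17 in microglia. *GAP43* in OPC, whose fitted value of 11.70 is no bound since the control count is 0, passed with at most 2500 genes (9.02) and without replicates 2 or 3 (11.003 to 11.966).

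Differences between astrocytes and other cell types numbered 0, 1 at 1000 UMIs, 4 at the limit of 0.05 and 0 to 1 without 1 replicate. Genes called by *GAP43* class numbered 142, 37 with DESeq2, 543 unthinned, 44 at 500 UMIs, 0 with no block, 2 in astrocytes without neuronal transcripts, 238 at the limit of 0.05 and 69 to 159 without 1 replicate. By *RTN4* class they numbered 46, 487 unthinned, 320 with log-normalized *RTN4* above 1, 0 with no block, 103 at the limit of 0.05 and 0 to 57 without 1 replicate. By *CUX2* and *FOXP2* they numbered 275, 1189 unthinned and 57 with no block.

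Values that changed sign were all of uncalled differences but 1, and the cause was not tested. These were *GAP43* in microglia at 1000 UMIs (-0.071) and in excitatory neurons without 1 replicate (-0.12 to 0.37), *STMN2* in oligodendrocytes at 1000 UMIs (0.67) and without 1 replicate (-0.50 to 0.070), *STMN2* in OPC without 1 replicate (-0.32 to 0.66), and the *BASP1* difference of astrocytes and excitatory neurons at 1000 UMIs (0.70) and without 1 replicate (-0.36 to 0.14). By *GAP43* class, *BASP1* was -0.15 unthinned and -0.38 to 0.49 without 1 replicate, *MARCKS* was 0.18 unthinned, 0.18 at 500 UMIs and -0.37 to 0.093 without 1 replicate, and *CHL1*, the called value, was -0.13 in astrocytes without neuronal transcripts, a class of 40 *GAP43*+ nuclei. By *RTN4* class, *MARCKS* was 0.0069 with no block and, without 1 replicate, *MARCKS* spanned -0.25 to 0.10, *BASP1* -0.63 to 0.32 and *CHL1* -0.10 to 0.11. By *CUX2* and *FOXP2*, *BASP1* was -0.034 unthinned, -0.064 in injured libraries only and -0.0020 with no block, *MARCKS* was 0.20 in injured libraries only and 0.054 with no block, and *CHL1* was 0.33 in injured libraries only. No paired analysis was possible because the control animals were pooled in 1 library, which gives no value per control animal. In control glia, medians of 793 to 1183 UMIs limit what can be detected.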

Other observations

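Co-detection of the other members with *GAP43* at 1000 UMIs was also read in excitatory neurons, without a test. There 20.5%, 28.5% and 28.4% of *GAP43*+ nuclei in injured replicates 1, 2 and 3 had a *BASP1* UMI, against 27.1%, 28.6% and 29.4% of *GAP43*- nuclei, and the control shares were 25.4% and 23.8%. *STMN2* was found in 17.9%, 17.6% and 14.8% of *GAP43*+ and 15.7%, 16.9% and 12.9% of *GAP43*- excitatory nuclei of the injured replicates, and in 20.4% and 14.6% in the control library. *RTN4* was found in 32.1%, 39.6% and 33.0% of *GAP43*+ and 34.1%, 39.3% and 36.3% of *GAP43*- excitatory nuclei, and in 46.4%, 55.6% and 55.3% of *GAP43*+ and 36.8%, 38.9% and 31.9% of *GAP43*- astrocytes. The order seen in astrocytes, with *RTN4* more frequent in *GAP43*+ nuclei of all 3 animals, was also found in OPC (39.1%, 47.5% and 41.0% against 21.9%, 29.8% and 25.7%), inhibitory neurons, endothelium and microglia, and not in all 3 animals in excitatory neurons or oligodendrocytes. Differences between the cell types were not tested.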
